A study of Mus musculus with 6 samples.

Results

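Described here are 9 noncoding RNA genes of activated mouse CD8+ T cells, out of 24589 gene symbols in the series. Of these, 7 are host genes of small nucleolar RNAs (Epb41l4aos, Gas5, Snhg1, Snhg5, Snhg6, Snhg8 and Snhg12) and 2 are long RNAs that stay in the nucleus (Malat1 and Neat1). They were picked by symbol with their levels in these libraries already known, so their levels and their calls by limma are given as a description, with no p-value. The study asked how trans-vaccenic acid (TVA), which occurs in the milk and meat of ruminants, alters gene expression in CD8+ T cells, the cytotoxic lymphocytes. Primary wild-type (WT) CD8+ T cells of C57BL/6 mice, taken from spleen and from peripheral lymph nodes, were purified with magnetic beads and activated in culture by antibodies against CD3 and CD28. The activated cells then received 20 µM TVA (3 libraries) or DMSO, the solvent control (3 libraries), for 24 h. The study's methods give its mice as 7 to 12 weeks old and of both sexes. The sources used here do not say whether animals were pooled for these libraries or whether replicates came from separate animals or cultures, so p-values measure only a spread between libraries that may be technical.

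Small nucleolar RNAs (snoRNAs) are short guides that pair with ribosomal and spliceosomal RNA and direct its chemical modification, box C/D snoRNAs guiding ribose methylation and box H/ACA snoRNAs guiding pseudouridylation. In vertebrates most of them are cut from the introns of a host transcript, and in genes such as Gas5 and Snhg1 the spliced exons encode no known protein and are removed by nonsense-mediated decay, a pathway tied to translation. Many host genes begin with a pyrimidine tract, the oligopyrimidine start shared with ribosomal protein genes. Malat1 is an abundant RNA of nuclear speckles, which store splicing factors, and Neat1 is the scaffold on which paraspeckles assemble.

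The snoRNA sequences below are the products for which the host genes are known, shown because the table measures the hosts and the snoRNAs as separate symbols. By GENCODE vM21 (GRCm38), 28 snoRNA gene entries lay on the same strand inside the 7 host genes, 10 of them in Gas5, 8 in Snhg1, 5 in Snhg12, 2 in Snhg5 and 1 each in Epb41l4aos, Snhg6 and Snhg8. Snord80 in Gas5 and Snora16a in Snhg12 were each entered more than once at overlapping positions, so entries outnumber loci. Malat1 and Neat1 held 0. The entries shown are Snord47 in Gas5 (chr1:161038082-161038158, plus strand), Snord50a and Snord50b in Snhg5 (chr9:88521529-88521600 and chr9:88521797-88521868, minus strand), Snord87 in Snhg6 (chr1:9942463-9942549, minus strand), Snord99 and Snora61 in Snhg12 (chr4:132310691-132310764 and chr4:132310240-132310369, plus strand) and Snora24 in Snhg8 (chr3:123507937-123508066, minus strand). Sequences run 5′ to 3′. Capitals mark the C box TGATGA and the D box CTGA in Snord entries, and the ACA near the 3′ end in Snora entries.
Snord47: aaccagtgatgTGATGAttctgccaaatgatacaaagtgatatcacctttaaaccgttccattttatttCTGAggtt
Snord50a: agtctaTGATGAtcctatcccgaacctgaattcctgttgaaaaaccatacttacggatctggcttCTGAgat
Snord50b: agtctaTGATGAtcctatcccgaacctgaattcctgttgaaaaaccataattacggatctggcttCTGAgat
Snord87: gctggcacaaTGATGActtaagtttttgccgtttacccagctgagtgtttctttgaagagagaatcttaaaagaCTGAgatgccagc
Snord99: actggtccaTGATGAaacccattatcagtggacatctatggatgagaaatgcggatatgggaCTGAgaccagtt
Snora24: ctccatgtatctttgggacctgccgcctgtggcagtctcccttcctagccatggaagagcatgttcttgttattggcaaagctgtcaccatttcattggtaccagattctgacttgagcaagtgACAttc
Snora61: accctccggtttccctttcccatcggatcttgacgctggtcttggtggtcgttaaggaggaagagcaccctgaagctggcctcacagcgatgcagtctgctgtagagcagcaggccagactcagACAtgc

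The Snord50a and Snord50b sequences, 72 bases each, differed at 1 position. Among 27 entries searched, 17 had TGATGA within the first 20 bases and CTGA within the last 15, 4 had ACA within the last 8 bases of an entry longer than 110 bases, and 6 had neither arrangement. The search read the transcribed strand and exact letters alone. The TPM table listed 8 of the snoRNA symbols inside the hosts (Snord47, Snord22, Snord87, Snora24, Snora16a, Snora44, Snora61 and Snord99), and each was listed at 0 in all 6 libraries. Of 121 snoRNA symbols in the whole table, 114 were at 0 in all 6 libraries. The libraries were made with an mRNA-seq kit, and a listed 0 says nothing of the amount of snoRNA in the cells, so the values that follow are those of the host transcripts.

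The sequences around the annotated starts are shown because the oligopyrimidine start is a feature that host genes are known for. RefSeq (GRCm38.p6) gave promoter windows for 6 of the 9 genes and 7 starts, with 2 for Gas5. Each line holds 10 bases before and 20 bases from the start, on the strand of the gene. Capitals mark a run of at least 5 pyrimidines, counted from a C within 10 bases of the start. Pyrimidines just before that C were not counted and can precede it, as a t does for Snhg5, Snhg8 and Snhg12. The windows are chr1:161034591-161034620 (Gas5 upstream start, plus strand), chr1:161035156-161035185 (Gas5 downstream start, plus strand), chr19:8723477-8723506 (Snhg1, plus strand), chr9:88522878-88522907 (Snhg5, minus strand), chr3:123508317-123508346 (Snhg8, minus strand), chr4:132308668-132308697 (Snhg12, plus strand) and chr19:5802653-5802682 (Malat1, minus strand).
Gas5 upstream start: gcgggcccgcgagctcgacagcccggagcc
Gas5 downstream start: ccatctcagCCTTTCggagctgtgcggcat
Snhg1: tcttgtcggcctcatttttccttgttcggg
Snhg5: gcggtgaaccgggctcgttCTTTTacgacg
Snhg8: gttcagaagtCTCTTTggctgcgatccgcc
Snhg12: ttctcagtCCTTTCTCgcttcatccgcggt
Malat1: ggctctgcgtcaggcattcaggcagcgaga

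Such a run was found in 4 of the 7 windows (Gas5 downstream start, Snhg5, Snhg8 and Snhg12) and in 30.7% of the 32851 RefSeq windows. In full windows of 300 bases, 250 before and 50 after the start, 3 motifs were searched on both strands. The cAMP response element TGACGTCA, the site bound by CREB, was found in 1 of the 7 windows, 46 bases before the downstream start of Gas5, and in 1.79% of all windows. Its core TGACG, which lies inside the longer motif, was found in 4 windows (Gas5, Snhg8, Snhg12 and Malat1) and in 20.8% of all windows. The E-box CACGTG was found in 0 of the 7 windows and in 7.15% of all windows. These are matches of letters, with no binding measured here.

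Transcript levels are given in TPM, a unit that corrects for transcript length and scales each library to the same total. TPM keeps no trace of sequencing depth, so depth is unknown and no counting interval is given. Between 10778 and 10870 genes reached 1 TPM in a library, and 10866 genes with at least 1 TPM in at least 3 libraries were tested with limma on log2(TPM + 1), a scale that understates the change of low genes. All 9 noncoding RNAs passed this filter. In limma, 925 genes passed an adjusted p of 0.05, 574 higher and 351 lower with TVA, and the median log2 change over all genes was 0.04. Calls with a higher level made up 62.1% of these, 35.4% with median-of-ratios size factors, 46.1% with quantile normalization and 52.0% after a GC correction. DMSO replicate 2 lay nearest to the TVA libraries, and without it 2211 genes were called. The libraries differed in their dependence on GC content: the Spearman correlation across genes (which are not independent replicates) between a gene's deviation from its mean and the GC content of its transcripts was 0.59 in DMSO replicate 1, between -0.04 and -0.00030 in the other DMSO libraries and between -0.41 and -0.16 in the TVA libraries. Of 6 CD8 T cell markers, 5 were listed, with summed levels of 1516 to 1638 TPM in DMSO and 1756 to 1787 TPM with TVA, and none was at 0. Summed myeloid markers (6 of 6 listed, 0 at 0 in all libraries) were 40.7 to 44.4 TPM in DMSO and 54.2 to 55.8 TPM with TVA, B cell markers (5 of 5) 11.3 to 14.9 and 10.65 to 11.02 TPM, and CD4 T cell markers (3 of 3) 9.97 to 11.6 and 8.72 to 10.4 TPM. NK cell markers (2 of 2) were at 0.49 to 0.85 and 0.23 to 0.43 TPM, and red cell markers (5 of 5) at 37.7 to 61.3 and 48.6 to 58.7 TPM. The part of these markers and of GC content in the levels below was not tested, and in bulk RNA fewer cells of a type and less RNA per cell cannot be told apart.

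Per unit of length, the noncoding RNAs spanned a wide range in DMSO-treated cells. Snhg6 was highest with a mean of 1082 TPM and Neat1 lowest with a mean of 5.99 TPM. Over all 6 libraries, the mean of Snhg6 (1065 TPM) lay above that of 98.8% of the genes tested, and the mean of Neat1 (6.56 TPM) above that of 22.2%. The order in DMSO was Snhg6, Snhg1, Snhg12, Malat1, Gas5, Snhg5, Snhg8, Epb41l4aos and Neat1. In this order the ranges of Malat1 and Gas5 overlapped, as did those of Gas5 and Snhg5, and no other neighbours did. With TVA the order differed only in that Snhg5 stood above Gas5, and no neighbours overlapped. These levels are shown library by library in the plot of TPM by library.

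**Figure D1:**
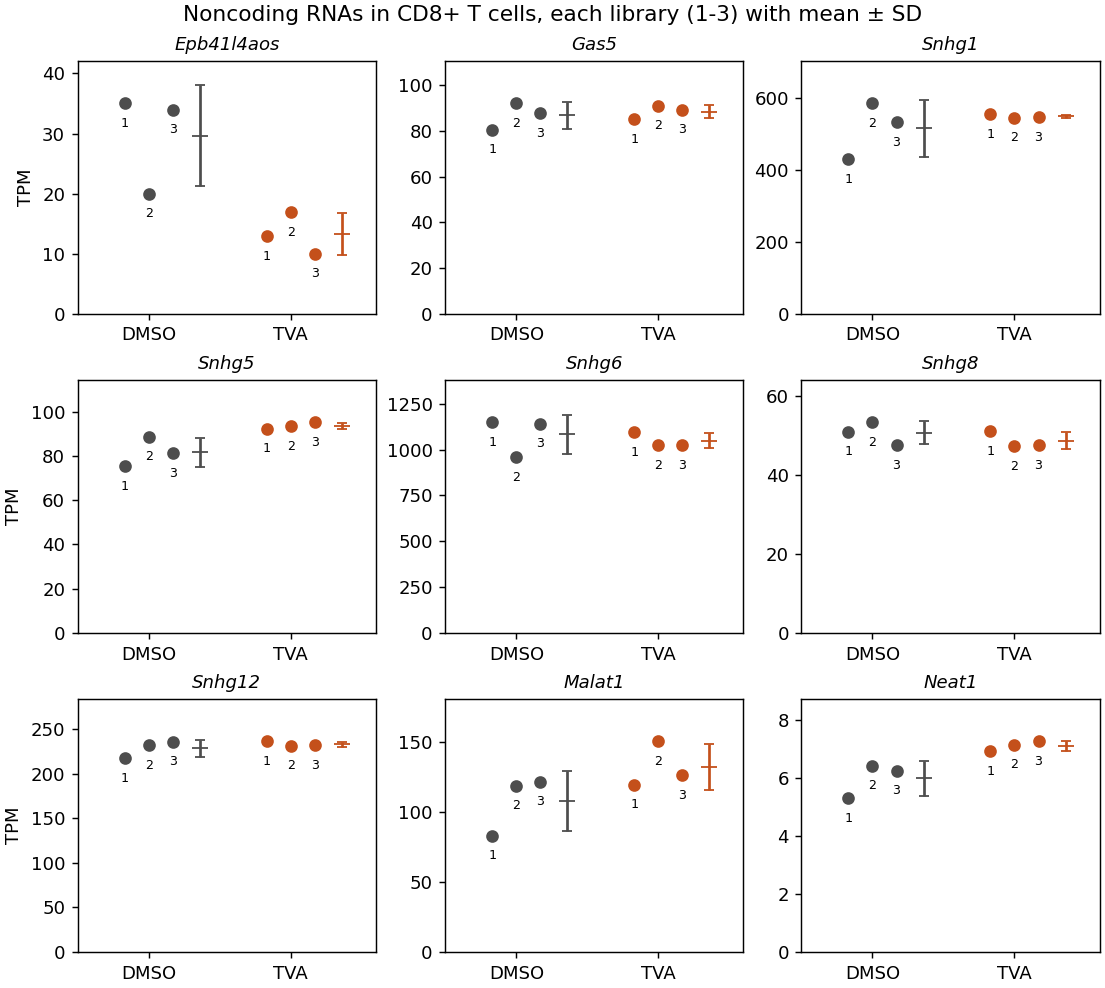
TPM of each noncoding RNA in the 3 DMSO and 3 TVA libraries; each numbered point is 1 library, and bars are the mean ± SD. Epb41l4aos lies between 20.0 and 35.0 TPM in DMSO and between 9.96 and 16.9 TPM with TVA, whereas the points of Gas5, Snhg6, Snhg8 and Snhg12 from the 2 groups interleave.

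Epb41l4aos differed between the groups by -1.09 on the log2 scale, and the other 8 RNAs by -0.06 to 0.30. The median log2 change of the 9 was 0.03, against 0.04 over all genes. In limma, 1 of 9 passed the threshold, Epb41l4aos, which was lower with TVA, where the background is 8.51% of all genes in either direction, 5.28% higher and 3.23% lower. The TVA and DMSO libraries did not overlap for 3 of 9, against 38.6% of all genes. Since the RNAs were chosen with this comparison known, nothing is read from these counts. The plot of log2 changes shows where each RNA lies among all genes.

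**Figure D2:**
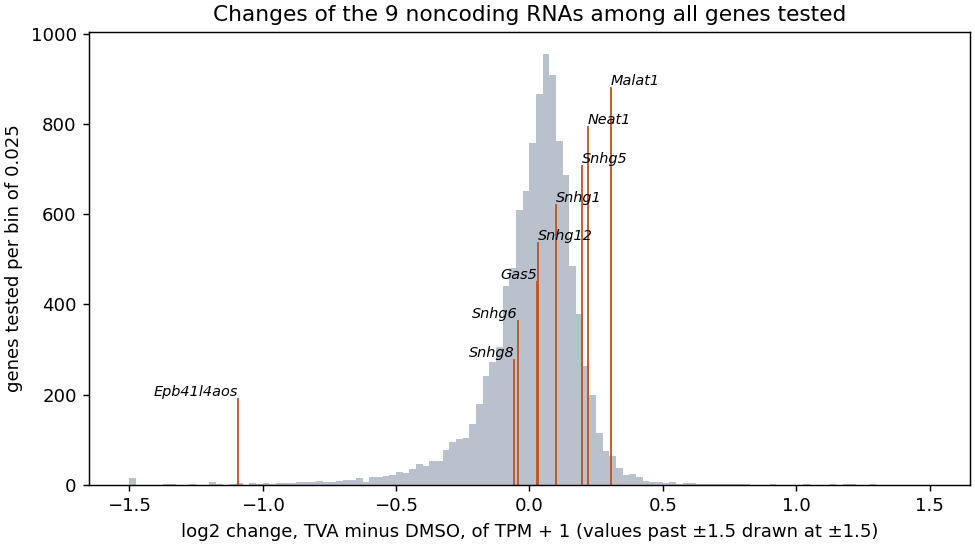
Distribution of the log2 change (TVA minus DMSO) over the 10866 genes tested, with the 9 noncoding RNAs marked. Epb41l4aos, at -1.09, lies in the far lower tail, and the other 8 lie between -0.06 and 0.30.

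Epb41l4aos is the noncoding RNA that differed most between the groups. It is annotated as a lincRNA next to Epb41l4a, a gene for a membrane-cytoskeleton adaptor, and holds 1 snoRNA entry. Its level was 35.0, 20.0 and 33.9 TPM in the DMSO replicates and 12.9, 16.9 and 9.96 TPM in the TVA replicates. All 3 TVA libraries lay below all 3 DMSO libraries, and DMSO replicate 2 came closest to the TVA range. The means were 29.6 ± 8.39 TPM (SD, n = 3) in DMSO and 13.2 ± 3.47 TPM (SD, n = 3) with TVA, a level 2.24-fold higher in DMSO. On the log2(TPM + 1) scale the difference was -1.09 with an SE of 0.24, and 0.239% of the genes tested had a lower change. Without DMSO replicate 2 it was -1.35, and over the 6 omissions of a single library it lay between -1.35 and -0.92. Epb41l4aos passed the limma threshold in 7 of 15 alternative analyses and missed it without any 1 library other than DMSO replicate 2. Its transcripts had a GC content of 55.1%, above that of 75.3% of genes, and after a GC correction the log2 difference was -1.06. The neighbouring Epb41l4a was at 0.01 to 0.06 TPM in the 6 libraries and did not pass the filter on low values.

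Gas5, named for its accumulation in growth-arrested cells, hosts the largest number of snoRNA entries of the genes here. It was at 80.6, 92.1 and 87.7 TPM in DMSO and at 85.2, 90.9 and 89.2 TPM with TVA. The TVA values fell inside the DMSO range. The means were 86.8 ± 5.80 TPM and 88.4 ± 2.94 TPM (SD, n = 3), a log2 difference of 0.03 with a 95% interval from -0.10 to 0.16. With a library left out it ranged from -0.02 (without DMSO replicate 1) to 0.07 (without DMSO replicate 2). Gas5 (chr1:161034422-161038539, plus strand, 25 annotated transcripts) overlaps Zbtb37 on the opposite strand. Zbtb37 was at 3.47 to 4.51 TPM, and since the use of strand in counting is not given in the sources used here, reads from the overlap cannot be assigned with certainty.

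Snhg1, which hosts a run of C/D snoRNAs (chr19:8723475-8726443, plus strand), was at 429, 585 and 533 TPM in DMSO and at 554, 545 and 547 TPM with TVA. The 3 TVA values fell within the DMSO range, with DMSO replicate 1 lowest and DMSO replicate 2 highest of all 6. The means were 516 ± 79.3 TPM and 549 ± 4.97 TPM (SD, n = 3), a log2 difference of 0.10 with an SE of 0.10. This difference was -0.03 without DMSO replicate 1, 0.20 without DMSO replicate 2 and 0.01 once corrected for GC content.

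Snhg5, host of the Snord50 pair printed above (chr9:88521050-88522929, minus strand), was at 75.4, 88.6 and 81.1 TPM in DMSO and at 92.4, 93.4 and 95.3 TPM with TVA. All 3 TVA libraries lay above all 3 DMSO libraries. The means were 81.7 ± 6.63 TPM and 93.7 ± 1.45 TPM (SD, n = 3), a 1.15-fold level with TVA and a log2 difference of 0.20 with an SE of 0.06. Snhg5 did not pass the limma threshold except without DMSO replicate 2, where its log2 difference was 0.26. After the GC correction the difference was 0.13.

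Snhg6, the most abundant of the RNAs and the host of Snord87 (chr1:9941959-9944118, minus strand), was at 1149, 958 and 1141 TPM in DMSO and at 1094, 1024 and 1024 TPM with TVA. The TVA values lay between DMSO replicate 2, the lowest of the 6, and the other DMSO libraries. The log2 difference was -0.04 with a 95% interval from -0.21 to 0.13. It was -0.13 without DMSO replicate 2, 0.0025 without DMSO replicate 1, -0.0024 without DMSO replicate 3 and -0.13 once corrected for GC content. The gene overlaps Mcmdc2 on the opposite strand, which was at 0 to 0.08 TPM.

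Snhg8 and Snhg12 both host box H/ACA snoRNAs. Snhg8 (chr3:123507552-123508404, minus strand) was at 51.0, 53.3 and 47.5 TPM in DMSO and at 51.1, 47.2 and 47.5 TPM with TVA, a log2 difference of -0.06 with an SE of 0.05. Snhg12 (chr4:132308623-132311024, plus strand) was at 217, 232 and 235 TPM in DMSO and at 236, 231 and 232 TPM with TVA, a log2 difference of 0.03 with an SE of 0.04. The groups overlapped for both genes. The difference of Snhg8 was -0.02 without DMSO replicate 2, -0.10 without DMSO replicate 3 and -0.11 once corrected for GC content. That of Snhg12 ranged from -0.0045 without DMSO replicate 1 to 0.05 without DMSO replicate 3. Of all 9 RNAs, Snhg12 had the smallest SE.

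Malat1 had the largest positive log2 difference of the 9, with overlapping groups and no call by limma. Malat1 (chr19:5795690-5802672, minus strand) was at 83.2, 119 and 122 TPM in DMSO and at 119.6, 151 and 126 TPM with TVA. DMSO replicate 1 was lowest and TVA replicate 2 highest, and TVA replicate 1 fell inside the DMSO range. The means were 107.9 ± 21.4 TPM and 132 ± 16.3 TPM (SD, n = 3), a 1.23-fold level with TVA and a log2 difference of 0.30 with an SE of 0.15. Leaving out DMSO replicate 1 gave a difference of 0.13. The transcripts had a GC content of 41.0%, and correcting for GC content gave 0.21. That GC content is a median over 4 annotated transcripts, whose median length is 606 bases in a gene spanning 6983 bases. For Neat1 it is a median over 4 transcripts, with a median length of 2017 bases in a gene spanning 20771 bases. Of the genes tested, 98.1% had a lower change.

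Neat1 (chr19:5824708-5845478, minus strand) was at 5.31, 6.42 and 6.25 TPM in DMSO and at 6.93, 7.16 and 7.27 TPM with TVA. All 3 TVA libraries lay above all 3 DMSO libraries. The means were 5.99 ± 0.598 TPM and 7.12 ± 0.173 TPM (SD, n = 3), a 1.19-fold level with TVA and a log2 difference of 0.22 with an SE of 0.07. Neat1 passed the limma threshold only with DMSO replicate 2 left out, where its log2 difference was 0.26. The table gives Neat1 a single row, so its short and long isoforms cannot be told apart. Malat1 and Neat1 together had a median log2 change of 0.26, and the 7 host genes one of 0.03.

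**Figure D3:**
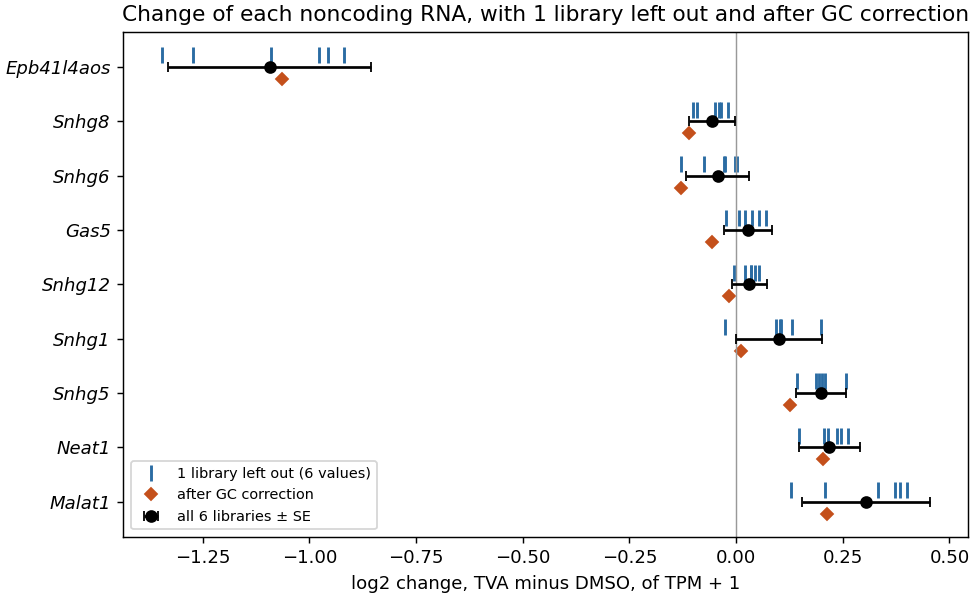
Log2 change (TVA minus DMSO, on TPM + 1) of each noncoding RNA with all 6 libraries (black, bars are SE), with 1 library left out (blue ticks) and after a GC correction (orange). Epb41l4aos stays between -1.35 and -0.92, while the values of Gas5, Snhg1, Snhg6 and Snhg12 fall on both sides of 0.

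The spread within each group and the libraries that held the extreme values were also compared with those of all genes. The coefficient of variation was smaller with TVA than in DMSO for 9 of 9, as for 74.4% of all genes. DMSO replicate 1 held the lowest of the 6 values for 6 of 9 (Gas5, Snhg1, Snhg5, Snhg12, Malat1 and Neat1), against 23.2% of all genes. For Snhg5 and Neat1, whose groups did not overlap, the lowest value had to be a DMSO value. DMSO replicate 1 held the highest value for Epb41l4aos and Snhg6, against 32.7% of all genes. It is also the library that stood apart in GC dependence, and the part of GC content in these levels was not tested. The transcripts of Snhg1, Malat1, Snhg6, Gas5 and Snhg5 had GC contents of 41.3%, 41.0%, 42.0%, 42.3% and 44.2%, below the median of 50.4% over all genes, as were those of Snhg8 (47.0%) and Snhg12 (47.8%), whereas Neat1 (51.7%) and Epb41l4aos lay above it. Across all genes tested, the log2 change had a Spearman correlation of -0.40 with GC content, given as a description. After the GC correction the log2 differences of Gas5 and Snhg12 were -0.06 and -0.02, on the other side of 0 from the uncorrected values, as they also were with median-of-ratios size factors and without DMSO replicate 1.

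**Figure D4:**
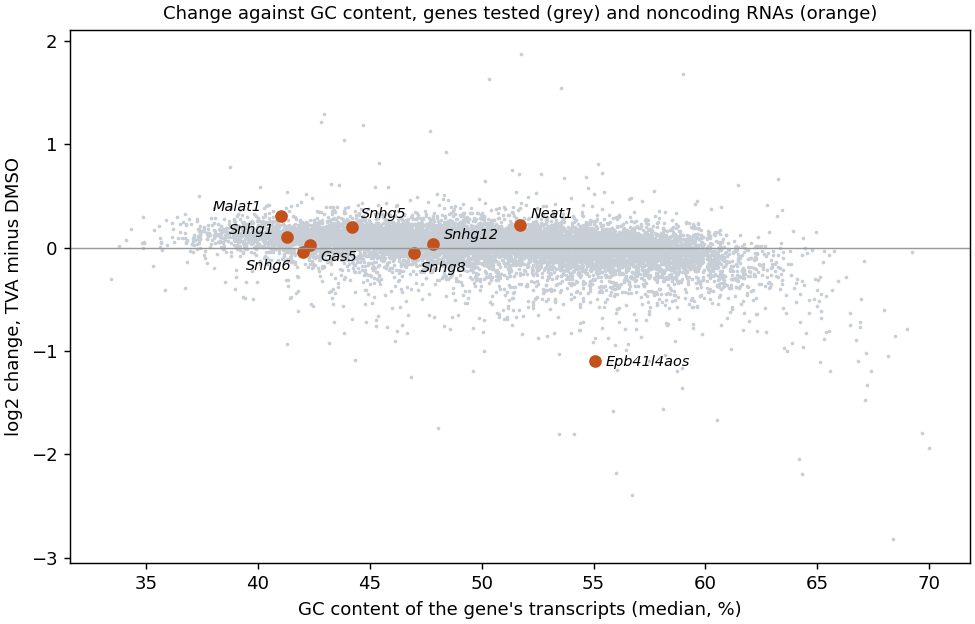
Log2 change (TVA minus DMSO) against the median GC content of each gene's transcripts, in percent, for all genes tested with a GC value (grey) and the 9 noncoding RNAs (orange). Changes tend to be lower at higher GC content, and Epb41l4aos lies at -1.09 and 55.1% GC.

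The profiles of the 9 RNAs over the 6 libraries were compared as root-mean-square distances between centred log2(TPM + 1) values. Snhg5 and Neat1 were closest to each other, at 0.034, followed by Gas5 and Snhg12, at 0.048. Epb41l4aos was 0.589 to 0.806 away from each of the others. Among 8926 genes averaging 5 TPM or more, those nearest to Malat1 were Lockd, Scnm1, Zfp930, Mitd1 and Mterf2, at distances of 0.097 to 0.106, against a median distance of 0.256. Lockd is itself a long noncoding RNA, Scnm1 encodes a factor of the minor spliceosome and Mterf2 a mitochondrial transcription regulator. Those nearest to the mean profile of the 7 hosts were Dtwd1, Msi2, D030028A08Rik, Rnf19a and Malt1, at 0.018 to 0.025. However, the root-mean-square size of that mean profile was itself only 0.071. The mean profile lay above 0 in every DMSO library and below 0 in every TVA library, as only Epb41l4aos did among the hosts. Centred values of Epb41l4aos ran from -0.90 to 0.82, and those of the other hosts from -0.30 to 0.14. Epb41l4aos therefore weighed most on that mean. A comparison with Epb41l4aos alone, added after its values had been seen, placed Hist1h1c, Hist1h3e, Hspa1a, Isg20 and Malsu1 nearest, at 0.188 to 0.246, against a median of 0.657. They encode a linker histone, a core histone, an inducible heat shock protein, an interferon-induced exonuclease and a mitoribosome assembly factor, and their distances are descriptions over 6 libraries.

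The genes around these RNAs were examined in 6 lists and are described by their counts and medians, beside a background of 8.51% of all genes called. Between 0 and 1 gene was called in each list. Without DMSO replicate 2, when 2211 of 10794 genes tested were called, each list held between 1 and 6 calls. Among 16 other noncoding snoRNA hosts, 13 were tested and 0 were called, with a median log2 change of -0.04. The most abundant, 2410006H16Rik and Zfas1, were at 844 ± 105 and 694 ± 40.1 TPM (SD, n = 3) in DMSO and at 888 ± 7.46 and 696 ± 21.9 TPM (SD, n = 3) with TVA. A further pair from this list was chosen after the values were seen. Snhg20 was at 41.4, 20.2 and 34.4 TPM in DMSO and at 22.9, 23.3 and 18.6 TPM with TVA. Its groups overlapped through DMSO replicate 2. Snhg9 was listed at 0 in 3 libraries and reached 42.4 TPM in TVA replicate 3, so that no fold is given.

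All 18 core and assembly proteins of snoRNPs, the particles that carry snoRNAs, were tested, and 1 was called. Znhit3, a factor in box C/D particle assembly, rose with TVA from 43.6 ± 1.61 to 50.1 ± 2.37 TPM (SD, n = 3), a log2 change of 0.20 with an SE of 0.05 (limma, adjusted p = 0.0496). Znhit3 passed in 3 of 15 alternative analyses, and of the 6 omissions of a library only in that of DMSO replicate 2. The methyltransferase Fbl was at 570.3 ± 30.7 TPM in DMSO and 579.8 ± 2.66 TPM with TVA, and Nhp2l1, which binds the box C/D motif, at 492 ± 20.2 and 504 ± 1.42 TPM (SD, n = 3). The list had a median log2 change of 0.02.

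Protein-coding genes whose introns carry snoRNAs, most of them for ribosomal proteins and translation factors, gave 0 calls among 34 tested and a median log2 change of -0.0014. Rps12, a ribosomal protein gene, was at 9103 ± 193 TPM in DMSO and 9359 ± 426 TPM with TVA, and Tpt1, which encodes a translationally controlled protein, at 7812 ± 419 and 7349 ± 46.2 TPM (SD, n = 3). Of 20 factors of nonsense-mediated decay, the route by which spliced host transcripts are degraded, 20 were tested and 0 were called, with a median log2 change of 0.02. The exon junction components Magoh and Rnps1 were at 439 ± 54.0 and 275 ± 12.9 TPM in DMSO and at 487 ± 5.24 and 278 ± 4.23 TPM (SD, n = 3) with TVA. At an unadjusted level, 3451 genes of the whole table had a limma p under 0.05.

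Of 23 paraspeckle and nuclear speckle proteins, the partners of Neat1 and Malat1, 1 was called and the median log2 change was 0.05. Srsf7, a splicing factor, rose from 183 ± 11.2 to 210.3 ± 1.18 TPM (SD, n = 3), a log2 change of 0.20 with an SE of 0.05 (limma, adjusted p = 0.0471). Srsf7 passed in 4 of 15 alternative analyses, and missed the threshold without DMSO replicate 3 or any TVA library. After the GC correction its log2 change was 0.11 and it was not called (limma, adjusted p = 0.09999). The RNA-binding protein Hnrnpk was at 546 ± 6.09 TPM in DMSO and 562 ± 12.1 TPM with TVA.

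Among 21 other long noncoding RNAs in the table, 10 were tested and 1 was called, with a median log2 change of -0.03. Peg13, an imprinted noncoding RNA, rose from 3.68 ± 0.340 to 4.69 ± 0.177 TPM (SD, n = 3), a log2 change of 0.28 with an SE of 0.07 (limma, adjusted p = 0.0499). Peg13 passed in 3 of 14 alternative analyses, and of the omissions of a library only in that of DMSO replicate 2. Rpph1, the RNA component of RNase P, was at 170.5 ± 15.8 TPM in DMSO and 155 ± 11.9 TPM with TVA. The lncRNA 2900097C17Rik was at 112 ± 3.68 and 114 ± 3.66 TPM (SD, n = 3). The plot of related lists shows these changes gene by gene.

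**Figure D5:**
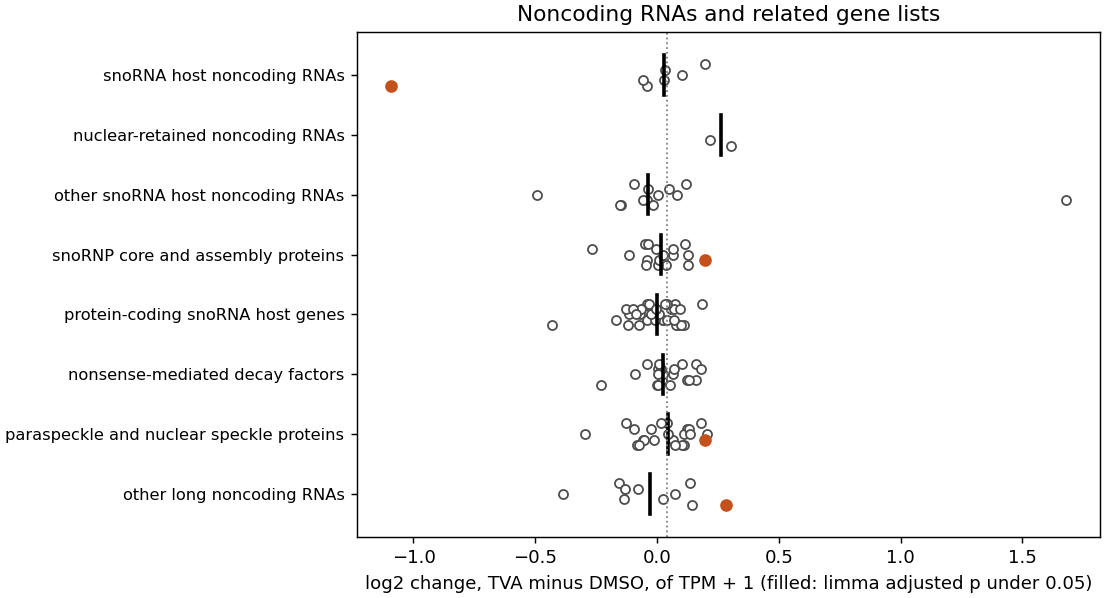
Log2 change (TVA minus DMSO) of every tested gene in the 9 noncoding RNAs and the 6 related lists with 1 point per gene; filled points passed the limma threshold, each short bar is the median of its list, and the dotted line marks the median of all genes at 0.04. Epb41l4aos (-1.09) is the called gene with a lower level, while Znhit3, Srsf7 and Peg13 are the called genes with a higher level.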

How the data were processed

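The authors deposited one table of TPM per gene symbol, with 2 decimals, and the submitters' processing notes name STAR, RSEM and mm10. The annotation, the tool versions and the use of strand are not given in the sources used here. The labels name a SMARTER mRNA-Seq kit for the 6 libraries. Group and replicate came from the sample titles, and 0 columns belonged to other samples. The comparison of TVA with DMSO used limma 3.58.1 (R 4.3.3, variance trend, two-sided, Benjamini-Hochberg over all genes, threshold 0.05) on log2(TPM + 1), for genes with at least 1 TPM in at least 3 libraries. The script was tested on simulated data. The replicate numbers were not used as a block. The GC content of a gene (median of its GENCODE vM21 transcripts) was available for 99.4% of genes tested, and the GC correction subtracted a loess curve (span 0.5) within each library. Alternatives were quantile normalization, median-of-ratios size factors, a pseudocount of 0.1, all genes above 0, genes averaging 10 TPM or more, no variance trend, a replicate block, the GC correction with and without that block, and each library left out. The members, lists and tests were chosen with earlier results of these data known, and the 6 related lists were written by hand. The named genes are all members, called genes of each list (at most 5, by size of change), the 2 of highest mean TPM in a list with fewer than 2 calls, and the 5 nearest in profile, of which 1 list gene is not reported here. Symbols were matched to lists by name or synonym, and Rn7sk had no match. Promoter windows came from RefSeq and figures from matplotlib 3.10.9.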

Additional observations from a re-analysis of the deposited data

How the results depend on the processing

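Calls near the threshold depended on the processing, and the cause was not tested. Against 925 genes called, 494 were called with all genes above 0, 608 with a mean of at least 10 TPM, 218 with the replicate block and 548 with GC correction and the block. Leaving out a library gave 95 to 2211 calls (95 without TVA replicate 2, 102 without TVA replicate 3, 121 without TVA replicate 1, 285 without DMSO replicate 3 and 2211 without DMSO replicate 2). Calls with a higher level were 42.7% of calls with the replicate block, 40.7% with GC correction and block, 35.4% with size factors, 46.1% with quantile normalization and 52.0% after GC correction, and 34.3% to 66.8% with a library left out. Of the 9 noncoding RNAs, 0 were called with all genes above 0, the replicate block, or GC correction and block, and 0 to 3 with a library left out. Of snoRNP proteins 0 were called with all genes above 0, a mean of at least 10 TPM, size factors, quantile normalization, no variance trend, the replicate block, or GC correction and block, and 0 to 3 with a library left out. Speckle proteins gave 0 under those settings except the mean filter, and 0 to 6 with a library left out. Other long noncoding RNAs gave 3 after GC correction, 0 with all genes above 0, the mean filter, size factors, a pseudocount of 0.1, quantile normalization or the replicate block, and 0 to 2 with a library left out. Coding hosts gave 2 after GC correction, 1 with quantile normalization and 0 to 6 with a library left out, decay factors 0 to 3 and other noncoding hosts 0 to 1. With a library left out, the highest count in each list and among the 9 noncoding RNAs came without DMSO replicate 2. In that setting 2211 of 10794 genes tested were called. Some named list genes, none of them called, changed side of 0 in log2 change. These were Hnrnpk (-0.033), Nhp2l1 (-0.029), Zfas1 (-0.047) and Rpph1 (0.33) after GC correction with or without the block, Zfas1 (-0.032), Fbl (-0.013), 2900097C17Rik (-0.015) and Rnps1 (-0.022) with size factors, and Rps12 (-0.069), Zfas1 (-0.035) and Rnps1 (-0.0023) with quantile normalization. With a library left out, 2410006H16Rik ranged from -0.023 to 0.15, Fbl from -0.012 to 0.065, 2900097C17Rik from -0.00077 to 0.049, Rnps1 from -0.021 to 0.046 and Zfas1 from -0.039 to 0.044. Whether libraries that share a replicate number were paired is not stated in the sources used here. Their deviations from the group means correlated at 0.16, 0.03 and -0.08 for replicates 1, 2 and 3. With 3 libraries per group, these values cannot decide whether there was a pairing. The replicate block pairs the libraries by number alone. TPM keeps no depth, so counting error could not be assessed, and 3 libraries per group limit every estimate of spread.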

Other observations

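Some snoRNAs that lie outside the 9 noncoding RNA genes did have values above 0. Of 121 snoRNA symbols, 7 were above 0 in at least 1 library and 3 passed the filter on low values. Snord15b was at 114, 129.8 and 0 TPM in DMSO and at 36.0, 95.3 and 125 TPM with TVA. Snord17, above 0 in all 6 libraries, was at 1.21, 5.07 and 4.52 TPM in DMSO and at 7.39, 4.93 and 5.56 TPM with TVA. Snora74a was at 1.94, 2.98 and 5.32 TPM in DMSO and at 0, 4.35 and 2.42 TPM with TVA. Snord15a (35.9 and 26.4 TPM) and Snora78 (15.01 and 15.32 TPM) were above 0 in DMSO replicates 1 and 2 alone, Snora81 in DMSO replicate 2 alone (31.9 TPM), and Snora23 in DMSO replicate 1 (2.80 TPM) and TVA replicate 3 (18.6 TPM). Of 10 mitochondrially encoded RNAs looked for by symbol or synonym, 0 were matched, so they were not analysed here.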
